A study of Homo sapiens with 7 samples.

Results

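The zinc finger genes of chromosome 19 were taken as all protein-coding genes of that chromosome whose GENCODE symbol, on the GRCh37 build, is ZNF followed by digits and an optional letter. This rule gave 246 genes among 1436 coding genes of chromosome 19 and 19834 coding genes of the annotation. The data were CTCF chromatin immunoprecipitation with sequencing (ChIP-seq) from K562 cells, an established erythroleukemia line, in 7 samples. Untreated cells gave 2 CTCF samples and 1 IgG sample, and cells incubated for 24 h with 10 μM of the G-quadruplex (G4) ligand pyridostatin (PDS) gave 2 CTCF and 2 IgG samples. The authors called peaks on both CTCF replicates of a condition together, so each condition is a single list, of 33094 peaks for control cells and 32917 peaks for PDS-treated cells. The lists hold no value for a replicate and no read count, so the sequencing depth is unknown and no difference between the conditions can be set against the spread between replicates. The medium and any vehicle given to the control cells are described by the labels only as untreated, and all cells were of 1 line. On chromosome 19 there were 1693 control and 1855 PDS peaks. Shares are given with Wilson 95% intervals and differences of shares with Newcombe 95% intervals, which cover counting error only. Neighbouring genes can hold the same peak, so genes are not independent of each other.

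Most ZNF genes encode proteins with a KRAB domain, which recruits the corepressor TRIM28, and with an array of C2H2 zinc fingers, each of which reads a few bases of DNA. Many of these proteins bind transposable elements and bring histone H3 lysine 9 trimethylation to them. The genes arose by repeated tandem duplication and lie in clusters, where the finger arrays are typically encoded by a single, long last exon. CTCF is itself a C2H2 zinc finger protein. It binds many gene starts and marks the borders of chromatin loops.

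The finger motif of 2 cysteines and 2 histidines was found 3094 times in the coding sequences of 245 of the 246 genes, and 97.7% of these fingers lay in the last exon. The median gene had 12 fingers, and ZNF208 had the most, 36. The longest annotated coding sequence of ZNF274, the remaining gene, is interrupted by stop codons on this build. Another transcript was read in its place, in which no finger was found. Fingers were thus found in 245 of the 246 genes, and the annotation on this build did not allow the longest coding sequence of ZNF274 to be read.

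CTCF peaks were fewer at ZNF genes than at the other 1190 coding genes of chromosome 19. A peak lay in or within 2 kb of 71 ZNF genes in control cells, 28.9% (23.6 to 34.8), and of 66 in PDS-treated cells, 26.8% (21.7 to 32.7). Over all 1436 coding genes of the chromosome the shares were 55.3% and 54.8%. The other coding genes alone reached 60.8% and 60.6%, so that the difference, ZNF minus other, was -31.9 percentage points (-37.9 to -25.3) in control and -33.8 (-39.6 to -27.3) in PDS-treated cells. ZNF genes of other chromosomes, 262 in number, had higher shares. Of them 53.1% (47.0 to 59.0) had a peak in control cells and 46.6% (40.6 to 52.6) in PDS-treated cells.

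At gene starts, within 1 kb of the annotated 5′ end, the difference was smaller. A start peak was present at 40 ZNF genes in control cells, 16.3% (12.2 to 21.4), and at 37 in PDS-treated cells, 15.0% (11.1 to 20.0). All coding genes of the chromosome gave 22.1% and 21.9%, and the other coding genes gave 23.4% and 23.3%. The difference was -7.10 percentage points (-11.9 to -1.48) in control and -8.24 (-12.9 to -2.73) in PDS-treated cells. It depended on the definitions: with 500 bp in place of 1 kb the control difference was -3.77 (-8.27 to 1.62), and against other genes with a last exon of at least 1500 bp the differences were -4.28 (-10.7 to 2.35) and -4.82 (-11.1 to 1.67), intervals that include 0. Among genes of 44 to 50% GC, compared below, it was reversed, at 15.1 (5.47 to 25.7) and 10.7 (1.36 to 21.2). At 50% GC and over it was -19.0 (-25.2 to -2.29) and -14.8 (-22.9 to 2.85), and under 44% both intervals included 0. Elsewhere in the gene or its flanks, apart from the last exon, 14.2% of ZNF genes and 47.0% of the other genes had a control peak.

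The last exons, which encode the fingers, held almost no CTCF peak. In each list 2 ZNF genes had a last exon peak, 0.813% (0.223 to 2.92), against 7.03% and 7.45% of all coding genes of the chromosome and 8.32% and 8.82% of the other coding genes. The difference was -7.51 percentage points (-9.31 to -4.96) in control and -8.01 (-9.85 to -5.44) in PDS-treated cells. The last exons of ZNF genes were longer, with a median of 3226 bp against 706 bp. Per length, 2.28 peak centres per Mb lay in ZNF last exons in either list, against 49.2 and 53.6 per Mb in those of the other genes.

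**Figure D1:**
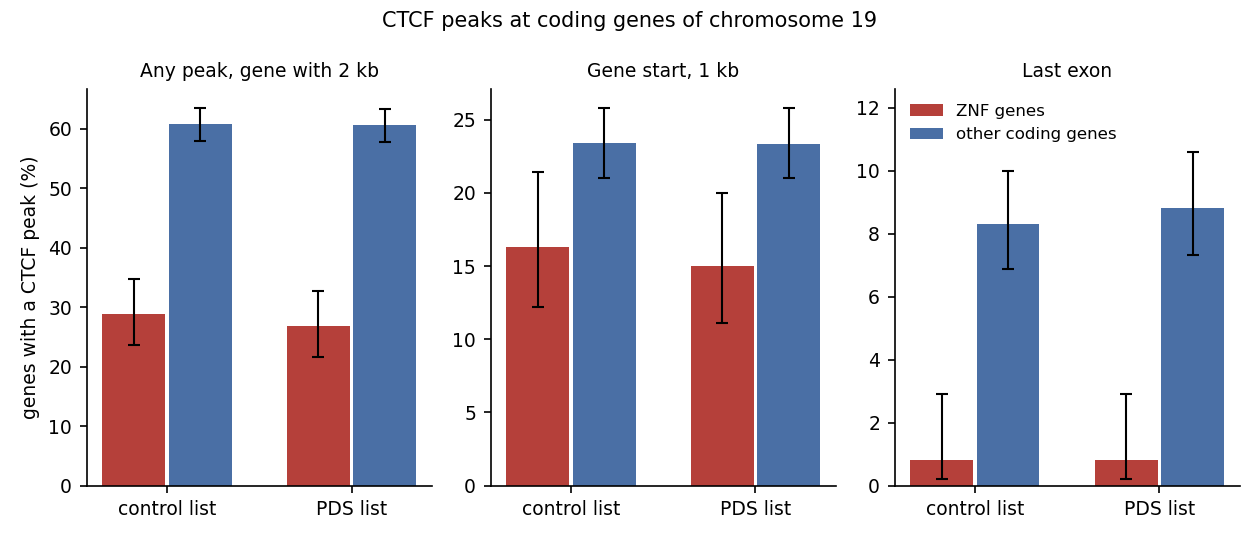
Share of ZNF genes (red, n = 246) and of the other coding genes of chromosome 19 (blue, n = 1190) with a CTCF peak in the control and PDS lists, in percent, for any peak in the gene or within 2 kb, a gene start peak and a last exon peak. Bars are shares and error bars are Wilson 95% intervals. The ZNF genes are lower in every panel, with 28.9% against 60.8% for any control peak and 0.813% against 8.32% for last exons.

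The last exon peaks belonged in both lists to the same pair of genes, ZNF575 and ZNF473. ZNF473, also known as ZFP100, takes part in the processing of replication-dependent histone messenger RNA. Its last exon peak had a fold of 18.4 over IgG in control cells, at chr19:50550121-50550540, and of 23.6 in PDS-treated cells. At ZNF575 the fold was 16.6 in control cells, at chr19:44039761-44040000, and 10.2 in PDS-treated cells. The centres of all these peaks lay in the 3′ untranslated part of the exon. The stretches from the first to the last finger of the last exons, 268 kb in all, held no peak centre in either list.

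Since the authors kept uniquely mapped reads only and removed reads of low mapping quality, repeated sequence could be missed in these paralogous genes. Of all stretches of 50 bp, the read length given in the labels, 91.7% in the finger arrays and 93.3% in the ZNF last exons occur at a single place in the genome, against 95.4% in the last exons of the other genes. Over whole genes with flanks the values were 91.3% and 91.4%. Exact copies alone count as repeated here, so near-identical copies, whose reads can have a low mapping quality, count as unique. The part of mapping in the low number of peaks was not tested beyond these values.

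The distribution of peak centres around gene starts showed where ZNF genes differed. In the 500 bp upstream of the start, 22 control peak centres lay at the ZNF genes, 8.94 per 100 genes, and the other coding genes had 8.66 per 100 genes. In the PDS list the values in this bin were 7.72 and 9.66. From 500 to 1000 bp upstream the ZNF genes had 1.22 control centres per 100 genes and the other genes 4.71. Around the beginning of the last exon, no ZNF gene had a peak centre in the 500 bp on either side in either list.

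**Figure D2:**
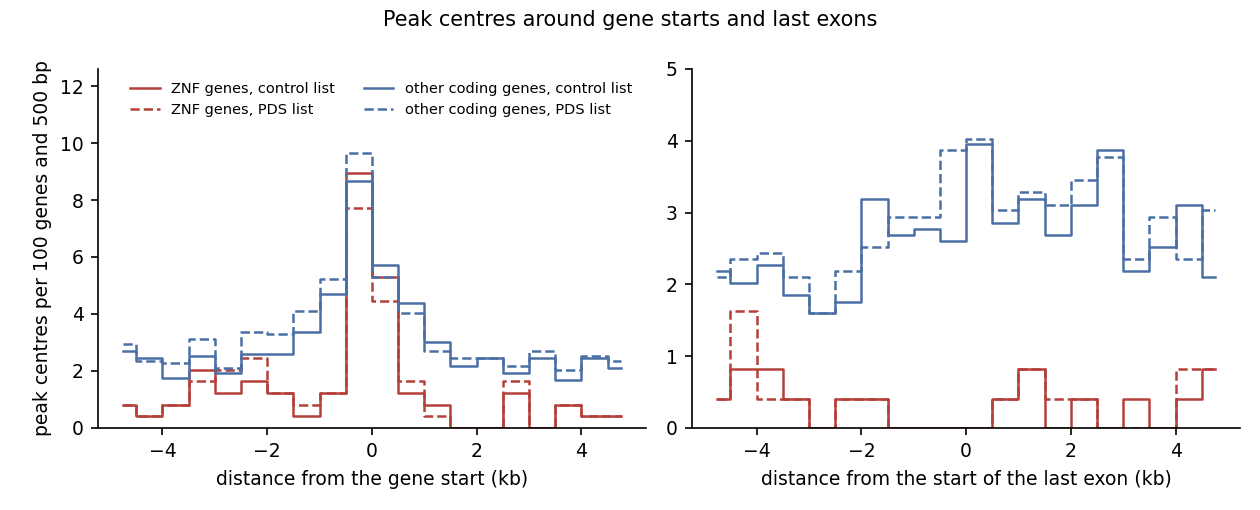
Peak centres per 100 genes in bins of 500 bp, against the distance in kb from the gene start (left) and from the beginning of the last exon (right), for ZNF genes (red) and the other coding genes of chromosome 19 (blue) in the control (solid) and PDS (dashed) lists. Just upstream of the start the sets reach 8.94 and 8.66 control centres and 7.72 and 9.66 PDS centres per 100 genes, whereas the ZNF genes stay below the others at greater distances and around the last exon.

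ZNF genes are poorer in G and C than their neighbours, with a median of 43.9% against 53.9% for the gene with its flanks, and the shares were compared again within ranges of GC content. Of the ZNF genes, 52.4% lay under 44% GC, where only 4.96% of the other genes lay. In that range 14.0% (9.01 to 21.0) of the ZNF genes and 28.8% (18.8 to 41.4) of the other genes had a control peak, a difference of -14.9 percentage points (-28.4 to -2.66). The difference was not even within this range. Under 40% GC 1 of 35 ZNF genes and 2 of 10 other genes had a control peak, from 40 to 42% the shares were 22.8% and 18.2%, and from 42 to 44% they were 10.8% and 40.7%. From 44 to 50% GC, with 91 ZNF and 178 other genes, the shares were 46.2% (36.3 to 56.3) and 47.2% (40.0 to 54.5). The order at gene starts was turned in this range: 26.4% (18.4 to 36.3) of the ZNF genes and 11.2% (7.39 to 16.7) of the other genes had a control start peak, a difference of 15.1 percentage points (5.47 to 25.7). In PDS-treated cells this difference was 10.7 (1.36 to 21.2). The last exon difference at 44 to 50% GC was -2.27 (-6.17 to 2.92) in control and -3.96 (-8.32 to 1.46) in PDS-treated cells. Under 44% GC it was -1.69 (-9.00 to 1.52) and 0 (-6.11 to 2.89). At 50% GC and over it was -5.81 (-9.57 to 9.34) and -6.23 (-10.0 to 8.92). All these intervals include 0. At 50% GC and over only 26 ZNF genes remained, of which 42.3% (25.5 to 61.1) had a control peak against 65.3% (62.2 to 68.2) of the other genes, a difference of -23.0 (-40.0 to -3.97). At gene starts 7.69% (2.14 to 24.1) of these ZNF genes and 26.7% (23.9 to 29.5) of the other genes had a control peak, a difference of -19.0 (-25.2 to -2.29), and in PDS-treated cells it was -14.8 (-22.9 to 2.85). Under 44% GC the start difference was 4.07 (-6.25 to 11.8) in control and 3.30 (-6.95 to 10.9) in PDS-treated cells.

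The starts were then sorted by the GC content of the start window itself. Between 45 and 50% GC, 14.8% (7.96 to 25.7) of 61 ZNF starts and 10.7% (5.50 to 19.7) of 75 other starts had a control peak. Between 50 and 55% GC the control shares were 12.2% and 13.4%, and between 55 and 60% they were 26.2% and 22.2%. At 60% GC and over, 20.0% (7.05 to 45.2) of 15 ZNF starts and 33.7% (29.5 to 38.2) of 457 other starts had one. No start under 45% GC held a peak in either set. In the PDS list the shares were 14.8% and 10.7% between 45 and 50% GC, 8.89% and 14.3% between 50 and 55%, 24.6% and 23.3% between 55 and 60%, and 26.7% and 32.2% at 60% and over. Within each of these ranges the intervals of the ZNF and other starts overlapped in both lists, and those of the ZNF starts were wide.

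**Figure D3:**
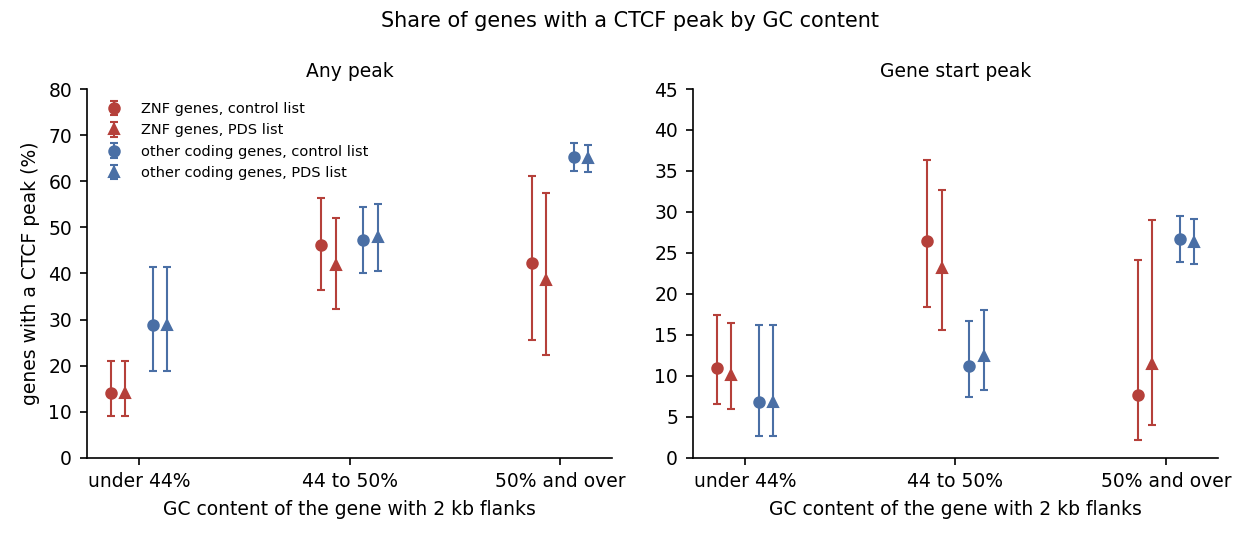
Share of genes with any CTCF peak (left) and with a gene start peak (right), in percent, by GC content of the gene with 2 kb flanks, for ZNF genes (red) and other coding genes of chromosome 19 (blue) in the control (circles) and PDS (triangles) lists. Error bars are Wilson 95% intervals. At 44 to 50% GC the shares with any control peak are 46.2% and 47.2%, and the start shares are 26.4% for ZNF and 11.2% for other genes.

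The ZNF genes with peaks were unevenly spread over the clusters of the family. With a largest gap of 250 kb and at least 5 genes, 12 clusters held 230 of the 246 genes. The cluster from ZNF737 to ZNF254, next to the centromere, has 29 ZNF genes in 3.59 Mb at 41.1% GC, and none of its genes had a CTCF peak in either list. It includes ZNF91, whose product represses SVA elements. The 5 genes from ZNF302 to ZNF792 likewise had no peak. In contrast, the cluster from ZNF653 to ZNF791, with 25 genes at 45.1% GC, had 14 genes with a control peak and 13 with a PDS peak, or 56.0% in control cells. The cluster from ZNF175 to ZNF331 had 15 and 13 of 39 genes, and the telomeric one from ZNF264 to ZNF446 had 12 and 12 of 43. The clusters spanned 23.3% of the sequence of the chromosome, and 9.04% of its control peaks and 8.57% of its PDS peaks lay there.

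**Figure D4:**
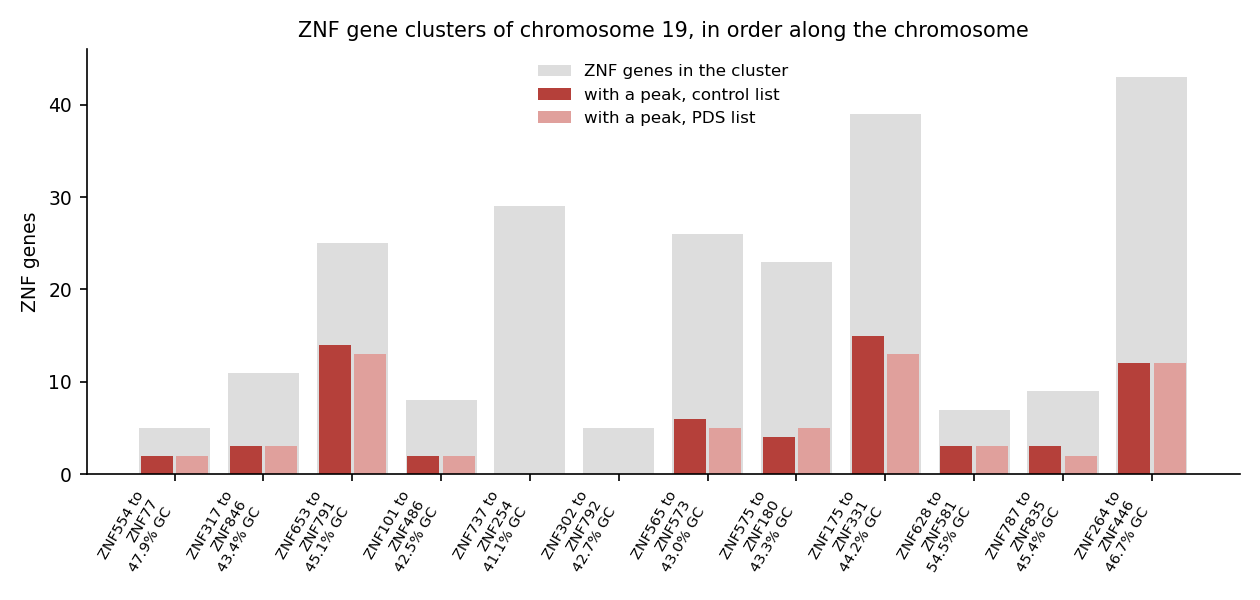
Number of ZNF genes (grey) and of those with a CTCF peak in or within 2 kb of the gene in the control (dark red) and PDS (light red) lists, for each of the 12 clusters in order along chromosome 19. Labels give the first and last gene and the GC content of the cluster. The cluster from ZNF737 to ZNF254 has 0 of 29 genes with a peak, and that from ZNF653 to ZNF791 has 14 and 13 of 25.

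Outside the clusters lay 16 ZNF genes, and 7 of them had a control peak. The gene with the most peaks of the family was among these: ZNF536, a regulator of neuronal differentiation that spans 488696 bp, held 8 control and 9 PDS peaks, most of them in a single intron. In the clusters, ZNF627 had 5 control and 2 PDS peaks, ZNF20 had 4 in each list, and ZNF653 had 2 and 3. Of all ZNF genes, 16 had 2 or more peaks in each list, 6.50% (4.04 to 10.3). Among the other coding genes of the chromosome 31.5% (28.9 to 34.2) did so in control and 33.9% (31.2 to 36.6) in PDS-treated cells.

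Some peaks of the cluster from ZNF653 to ZNF791, among them those at the starts of ZNF491 and ZNF763, shared a piece of sequence. The control start peak of ZNF491, with a fold of 66.9, holds a run of 14 letters that begins with the core AGGNGGC of the CTCF motif. The same 14 letters lay at 6 places in or near ZNF genes, all in this cluster, and are shown in capitals with the bases around them, on the strand that carries the run. This run was chosen after the peaks were seen.

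ZNF491: aacctgtAGGGGGCAGCAGAGcctaaggc
ZNF439: aacctgcAGGGGGCAGCAGAGcccgaggc
ZNF700: aacctgcAGGGGGCAGCAGAGcccaaggc
ZNF763: aacctgcAGGGGGCAGCAGAGccccaggc
ZNF20, past its 3′ end: aacctgcAGGGGGCAGCAGAGcccaagac
ZNF20, upstream: aacctgcAGGGGGCAGCAGAGaccgacgc

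These windows are, in the same order, chr19:11908404-11908432, chr19:11990859-11990887, chr19:12034625-12034653, chr19:12074867-12074895, chr19:12201824-12201852 and chr19:12252124-12252152 on GRCh37. The run lay in a peak of both lists at ZNF491 (fold 66.9 in control and 14.7 in PDS-treated cells), ZNF700 (50.5 and 26.4), ZNF763 (39.4 and 30.2) and at both places of ZNF20 (27.6 and 24.6 past its end, 38.4 and 25.3 upstream). The copy in ZNF439 lay in no peak of either list. On the whole of chromosome 19 the run occurred 23 times, of which 17 places were in a control peak and 16 in a PDS peak. The bases before the run differed at most at 1 place between the windows, and those behind it varied more.

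The strongest start peaks of the family were those of ZNF490, ZNF611 and ZNF491 in control cells and of ZNF329, ZNF616 and ZNF763 in PDS-treated cells. ZNF490 had a control fold of 99.5, rank 259 in its list, and a PDS fold of 18.6, rank 13223. ZNF611 had folds of 72.4 and 17.9. ZNF329 had a PDS fold of 33.7, rank 1887, and a control fold of 57.6, rank 2462. ZNF616 had 31.5 in PDS-treated and 64.5 in control cells. Folds of the lists were scaled separately, with medians of 26.5 and 16.7, so ranks and not folds are to be compared. In rank of the fold, ZNF329 and ZNF616 were high in both lists, whereas ZNF490, ZNF611 and ZNF491 were high in control cells alone. The p-values of the peak caller PePr were also computed for each list separately, so their sizes are not directly comparable between lists. For ZNF490, ZNF611 and ZNF491 these p-values ran the other way from the rank of the fold. They were 8.73e-13 in control and 1.81e-23 in PDS-treated cells at ZNF490, 4.76e-13 and 1.64e-32 at ZNF611, and 8.03e-11 and 8.39e-18 at ZNF491.

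The central 200 bp of the peaks at ZNF490 (chr19:12751071-12751270), ZNF616 (chr19:52642551-52642750) and ZNF329 (chr19:58666551-58666750), which overlap no exon of a coding transcript, are shown as examples on the strand of the gene, here the minus strand. Capitals mark AGGNGGC or AGANGGC, the core letters of the CTCF motif, read on either strand.

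ZNF490: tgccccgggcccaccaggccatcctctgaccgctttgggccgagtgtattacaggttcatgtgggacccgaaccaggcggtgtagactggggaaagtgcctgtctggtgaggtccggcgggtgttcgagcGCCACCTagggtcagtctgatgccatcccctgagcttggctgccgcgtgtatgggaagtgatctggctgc
ZNF616: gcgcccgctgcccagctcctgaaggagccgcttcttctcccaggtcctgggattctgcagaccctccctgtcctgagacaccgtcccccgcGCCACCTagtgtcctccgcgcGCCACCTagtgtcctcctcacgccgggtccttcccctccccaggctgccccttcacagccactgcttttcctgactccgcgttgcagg
ZNF329: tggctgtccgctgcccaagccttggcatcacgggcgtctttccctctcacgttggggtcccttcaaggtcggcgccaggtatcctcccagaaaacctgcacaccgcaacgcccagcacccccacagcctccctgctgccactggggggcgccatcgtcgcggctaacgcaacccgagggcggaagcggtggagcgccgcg

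ZNF490 has a single core, ZNF616 a pair within the same repeated stretch, and ZNF329 no exact match. Sites that differ from the core letters were not searched for, so the lack of a match does not exclude a similar site. Such a core lay in the central 200 bp of 53.7% (38.7 to 67.9) of the control ZNF start peaks and 62.4% (56.4 to 68.0) of the start peaks of other coding genes. In 200 bp at all gene starts it was found at 37.0% of the ZNF genes and 47.2% of the other genes, and 25.4% of all windows of this length on chromosome 19 held one.

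The full consensus of CTCF, a degenerate sequence of 15 letters derived from ChIP with exonuclease digestion and searched on both strands, was rarer at these peaks. It lay in the central 200 bp of 3.16% (1.08 to 8.88) of the 95 control peaks at ZNF genes and of 4.44% (1.74 to 10.9) of the 90 PDS peaks, against 13.6% (11.8 to 15.7) and 9.16% (7.70 to 10.9) at other coding genes. Read the other way, the ZNF genes with flanks hold 71 matches, of which 6 overlapped a peak in each list, 8.45% (3.93 to 17.2). A partial overlap was counted, as for the match of ZNF160 with its control peak. In the genes of the other set outside ZNF genes, 40.1% (36.0 to 44.3) of 524 matches lay in a control peak and 38.7% in a PDS peak. On all of chromosome 19, 37.3% of 799 matches lay in a control peak. The 6 matches in peaks are given with the consensus in capitals and 7 bases on either side, to show what the occupied sites look like.

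ZNF460: aggaggcCCAATAGAGGGCGGTctgtcct
ZNF627: aagggtcTCACAAGAGGGCAGTtctactg
ZNF160: tacgcagACATTAGGTGGCGGTgcagccc
ZNF580: cctccacCCACCAGATGGCAGTagcaccc
ZNF653: gcggcccGCAGGAGGCGGCGGCctcagca
ZNF536: ccttccaCCAGTAGATGGCGGCctctgca

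They lie at chr19:57791326-57791354 (plus strand), chr19:11671575-11671603 (minus), chr19:53580346-53580374 (plus), chr19:56150572-56150600 (minus), chr19:11593624-11593652 (plus) and chr19:31157393-31157421 (plus) on GRCh37. Only that of ZNF460 was at a gene start, at -79 bp from it, where the fold was 36.6 in control and 20.3 in PDS-treated cells. The match in ZNF627, 1400 bp after its start, lay in the strongest peak but ZNF490 of all control peaks at ZNF genes, with a fold of 85.1 and 32.5 in the respective lists. The match of ZNF580 lies also in its neighbour ZNF581, and that of ZNF653 beyond the end of the gene, near ELAVL3.

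Most consensus matches at ZNF gene starts were copies of a single sequence and lay in no called peak. Gene starts of the family held 45.9 matches per Mb, more than the 23.0 per Mb at starts of other coding genes, yet of these 22 matches 1 lay in a peak, against 22 of 50 at the other starts in control cells. Among them, 16 lay 273 to 373 bp after the start of genes of the neighbouring clusters from ZNF101 to ZNF486 and from ZNF737 to ZNF254, and held the letters AAGATGGCG, which are the core of the known binding site of YY1, a zinc finger factor of many promoters. Of these, 6 are shown with the consensus match in capitals.

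ZNF93: ccttcagCCATAAGATGGCGGCtgcgctt
ZNF85: cctccagCCATAAGATGGCGGCtgcgctg
ZNF714: ccttcagCCATAAGATGGCGGCtgcgctg
ZNF257: ccctcagCCATAAGATGGCGGCtgcgctg
ZNF99: ccttcagCCATAAGATGGCGGCtgcgctg
ZNF675: cctgcagCCATAAGATGGCGGCgcgctga

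The places are chr19:20012042-20012070, chr19:21106352-21106380, chr19:21265301-21265329, chr19:22235583-22235611, chr19:22966645-22966673 and chr19:23869660-23869688, each read on the strand of its gene. None of the 16 copies lay in a peak of either list. At ZNF253, among these genes, a control start peak with a fold of 7.48, percentile 2.97 of its list, ended before the copy. Of the stretches of 50 bp across a copy, a median of 100% had no exact repeat elsewhere in the genome. Whether YY1 lay there was not measured. Without these copies, 6 of 55 matches at ZNF genes, 10.9% (5.10 to 21.8), lay in a peak. AAGATGGCG, on either strand, was found at 14.6% of ZNF gene starts and 6.05% of the other gene starts. Of the starts that held it, 3 of 36 ZNF and 23 of 72 others had a control start peak.

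The G4 motif was taken as 4 runs of at least 3 G with 1 to 7 bases between neighbouring runs, searched on both strands. In the central 200 bp, peaks at ZNF genes and at other genes held it in similar shares. The motif was found in the central 200 bp of 14.7% (8.99 to 23.2) of the control and 16.7% (10.4 to 25.7) of the PDS peaks at ZNF genes, against 15.6% (13.6 to 17.8) and 14.1% (12.3 to 16.1) at the other coding genes. Over the whole peak, however, 14.7% (8.99 to 23.2) of the control peaks at ZNF genes and 29.9% (27.3 to 32.6) of those at other coding genes held it, and in the PDS list 13.3% (7.79 to 21.9) and 29.7% (27.2 to 32.2). Peaks at ZNF genes were also narrower (median 240 against 420 bp in control cells), and the part of width in this difference was not tested. In the start window of 1 kb on either side, 57.3% of the ZNF genes and 78.7% of the other genes had such a motif. Among ZNF genes with a G4 motif at the start, 17.7% (12.3 to 24.9) had a control start peak, and among those without it 14.3% (8.85 to 22.2). For the other genes the shares were 25.7% (23.0 to 28.6) and 14.6% (10.8 to 19.4). The motif is a sequence pattern, and folding was not measured in these samples.

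Peaks at ZNF genes were narrower than those of the other coding genes, with a median of 240 bp in control and 250 bp in PDS-treated cells against 420 and 400 bp. Their median fold stood at percentile 48.4 of the control list and 56.5 of the PDS list, where the other coding genes stood at 64.2 and 50.5. The start peaks of ZNF genes stood at percentile 62.1 of the control list and the peaks elsewhere in them, apart from last exons, at 47.8. In the PDS list the order was turned, at 54.5 and 57.2.

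Between the conditions the ZNF genes with peaks were mostly the same. Of the 74 genes with a peak in either list, 63 had one in both, 8 in the control list alone and 3, ZNF14, ZNF224 and ZNF497, in the PDS list alone. One of the 8, ZNF665, had a PDS peak that overlapped its control peak but fell beyond 2 kb. Of the 95 control peaks, 19 overlapped no PDS peak, 20.0%, and of the 90 PDS peaks 13 overlapped no control peak, 14.4%. Over the whole lists the shares were 22.0% and 21.4%, and at other coding genes of chromosome 19 they were 11.6% and 19.3%. Control peaks without a counterpart had a median fold of 18.7, those with one 34.0. The strongest were in ZNF565 (39.7, chr19:36681541-36681720, where 61.1% of the stretches of 50 bp are unique) and in ZNF577 (24.7). In the PDS list they were in ZNF507 (25.3, chr19:32868101-32868200) and in an intron of ZNF536 (18.2).

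At gene starts 33 ZNF genes had a peak in both lists, 7 in the control list alone and 4 in the PDS list alone. Counted as peaks, 19.5% of the control and 10.5% of the PDS start peaks of ZNF genes overlapped no peak of the other list, against 13.5% and 14.9% of the start peaks of other coding genes of the chromosome. Of the 4 genes with a start peak in the PDS list alone, ZNF700 had an overlapping control peak that lay just outside 1 kb. The other genes of these were ZNF14, ZNF224 and ZNF497, with folds of 13.0, 9.87 and 7.79. A further PDS start peak without a counterpart, with a fold of 7.35, lay at ZNF491, a gene with another start peak in both lists. These 4 unshared peaks were all below the median fold of the PDS list. With a single list per condition, a gene that gained or lost a peak cannot be told apart from one close to the calling threshold.

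Among 75 pairs of peaks that overlapped one to one, the percentile of the fold was higher in the PDS list for 33 and lower for 42. Their rank correlation between the lists was 0.464 (Spearman, across peaks of these lists, which are not independent replicates). Start peaks whose fold stood high in control cells alone, such as ZNF490 and ZNF555 (39.7 and 9.32), and peaks whose fold stood high in PDS-treated cells alone, such as that in the last exon of ZNF473, were both present. The PePr p-values of these peaks, which were also computed for each list separately, ran the other way. They were 8.73e-13 in control and 1.81e-23 in PDS-treated cells at ZNF490, 2.54e-09 and 8.60e-11 at ZNF555, and 4.26e-12 and 2.18e-09 at the last exon of ZNF473.

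**Figure D5:**
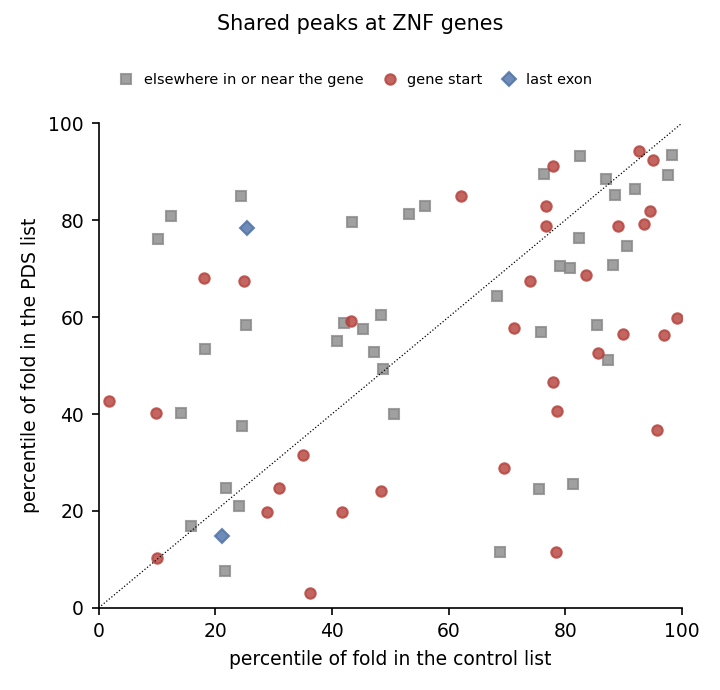
Percentile of the fold of 75 one-to-one overlapping peaks at ZNF genes in the control list (horizontal) and PDS list (vertical), for peaks at gene starts (red circles), in last exons (blue diamonds) and elsewhere in or near the gene (grey squares). The dotted line marks equal percentiles. Points scatter on both sides of it, with 33 above and 42 below.

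Some ZNF genes with known functions had a CTCF peak at their starts, and others had none. ZNF274, which brings SETDB1 to the ends of other ZNF genes, had a start peak with a fold of 59.9 in control and 23.9 in PDS-treated cells. Its centre lay at -925 bp and -845 bp from the start in the respective lists, near the edge of the window. At ZNF582, a gene often methylated in tumours, the folds were 52.4 and 17.9, and at ZNF808, which is needed for pancreas development, 11.3 and 8.92. Those of ZNF808 were low, at percentiles 9.95 and 10.2 of their lists. No peak lay at ZNF91 or at ZNF93, whose product represses L1PA elements, at the imprinted gene ZNF331 or at ZNF154. Among 12 genes for the machinery that KRAB zinc finger proteins use, 4 had a peak in each list, and a start peak was present at PPHLN1 only, with folds of 27.4 and 10.2. Over the coding genes of other chromosomes outside the ZNF family, 57.0% had any control peak and 53.5% any PDS peak, and 22.2% and 20.9% had a start peak. PPHLN1 encodes a subunit of the HUSH complex. TRIM28, SETDB1, CBX3, ATRX, DAXX, MORC2, MPHOSPH8 and TASOR had no peak in either list, and CBX1, CBX5 and ATF7IP had peaks away from the start.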

How the data were processed

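Single lists of CTCF peaks for control and PDS-treated K562 cells were used. Per the submitters' notes and the study's methods, the authors aligned reads to hg19 with Bowtie2 2.2.3 and made tracks with deepTools 2.0. Duplicates, reads that did not map uniquely and reads of low mapping quality were removed with SAMtools. Peaks were called with PePr on both replicates jointly. The labels name single-end reads and the methods paired-end libraries. The fold over IgG and the p-value of each peak were computed by the authors and deposited. The largest deposited p-value was 1.00e-05, far below the cutoff that the methods name. Columns of per-sample values left unused numbered 0.

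Genes came from GENCODE release 44 mapped to GRCh37. A peak that overlapped a gene or its 2 kb flanks by 1 bp was assigned to it, first to the start (1 kb on either side of the 5′ end), then to the last exon of the transcript with the longest coding sequence. Positions were compared with Python 3.11.15, and intervals were computed with scipy 1.17.1. Motifs and 50-mers were read from the GRCh37 sequence, which is the sequence of hg19. The assignment of peaks, the overlap of lists, the search for the CTCF consensus and the G4 motif, the 50-mers and the Wilson intervals were tested on simulated data. No test of significance was run, since no replicate values were available. Named genes were, for each list, the 3 with the strongest start or last exon peak, the 3 with the most peaks (ties by position), the 2 strongest unshared peaks per list, 7 well-studied family members and 12 machinery genes. Other genes, such as ZNF555, ZNF665 and those named for a shared sequence, a cluster or a small count, were chosen after their values were seen. In the PDS list the 2 strongest unshared peaks are those of ZNF507 and ZNF536. The members and lists were chosen with earlier results of these data known.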

Additional observations from a re-analysis of the deposited data

How the results depend on the processing

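Of 134 values of 18 results under other settings, 104 stayed within the 95% interval of the reported value. This count includes values that could not change. Settings of the start window or the last exon only reassign peaks within a gene, so the any peak differences stayed as they were. Likewise a flank of 5 kb could not alter the start and last exon differences. No paired analysis was possible because the replicates of a condition were merged into a single list, and for the same reason no replicate could be left out. The share of ZNF genes with any peak moved to 21.5% (control) and 21.1% (PDS) without flanks, 35.4% in both lists with 5 kb, and 15.4% and 15.0% with the 50% of peaks of smallest p-value, which lowered the start share to 6.91% and 7.72%. The difference in any peak, in percentage points, became -27.2 in the PDS list without flanks, and -41.8 and -44.2 against genes of similar length. The last exon difference became -9.97 and -11.1 with the last exon of any transcript, and -11.0 and -10.3 against last exons of at least 1500 bp. The start difference kept its sign under the planned settings, but its interval included 0 with a 500 bp window in the control list (-3.77), without flanks in the PDS list (-3.38) and against last exons of at least 1500 bp (-4.28 and -4.82). Comparisons at similar GC content were added after seeing the data. Against other genes within the middle 50% of ZNF GC content the differences were -12.2 and -14.3 (any peak), -2.52 and -1.41 (last exon), and reversed to 6.26 and 3.93 (start). The intervals of the start and last exon differences included 0, and those of any peak did not. Within 44 to 50% GC they were -1.04 and -5.99 (any), -2.27 and -3.96 (last exon) and reversed to 15.1 and 10.7 (start). The cause was not tested. With loops of up to 12 nt the G4 share was 28.4% and 26.7%. With centres at most 100 bp apart, 76.7% of PDS peaks were shared. Few last exon peaks, an unknown depth and a single list per condition limit all values.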
